A study of Homo sapiens with 4 samples.

Results

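Collagen genes were taken as the protein-coding genes of the GENCODE annotation on hg19 whose symbol is COL, a number, A and a number. The rule gave 44 genes among 20163 protein-coding genes. Their FAIRE sites were read from H295R/TR SF-1 cells, a single subclone of the H295R adrenocortical tumour line in which doxycycline switches on an added copy of the nuclear receptor SF-1 (NR5A1). Cells with basal SF-1 expression carried the same inducible copy, and cells overexpressing SF-1 had received doxycycline for 3 days before fixation. FAIRE-seq, in which regulatory elements are isolated with the aid of formaldehyde, enriches DNA with few nucleosomes. There was 1 FAIRE library per condition, which gave a basal list of 34423 sites and an overexpression list of 31219 sites, and 1 input DNA library per condition, which was not analysed here. Depth is unknown, no difference between the conditions has a replicate check, and all intervals are exact 95% intervals that cover counting error only. Where a list has no site, none was called, which does not show that the chromatin was closed.

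Collagens are triple-helical proteins of the extracellular matrix. Each chain has its own gene, and the chains are grouped by the structures they build, such as banded fibrils (fibrillar collagens), the meshwork of basement membranes (network collagens), molecules attached to fibrils (FACIT collagens), beaded microfilaments (type VI) and proteins anchored in the plasma membrane (transmembrane collagens). Fibroblasts make most fibrillar collagen, whereas many epithelial and endocrine cells contribute type IV collagen to the basement membrane beneath them. The matrix supplies collagen-binding integrins and discoidin domain receptors with their ligands.

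As a check on the cell label, 7 of 8 adrenocortical marker genes had a promoter site in at least one list (87.5%, interval 47.3 to 99.7), against 53.9% of all coding genes, a share that this interval holds. They were NR5A1, STAR, CYP17A1, FDX1, CYP11A1, SCARB1 and MC2R, while HSD3B2 had sites near it but none at a start. Within a single list the share was nearer to that of all coding genes. It was 4 of 8 in the basal list (against 46.7%) and 5 of 8 in the overexpression list (against 48.9%). STAR and CYP17A1 had a promoter site in both lists, and NR5A1 and FDX1 had no site in the overexpression list. None of 9 fibroblast marker genes had a promoter site in either list (upper limit of the interval 33.6%), against the same 53.9%. The fibroblast markers, among them PDGFRA, PDGFRB, FAP, DCN and LUM, had 2 basal and 4 overexpression sites, none of them shared between the lists. Near all coding genes 58.1% of basal and 62.9% of overexpression sites were shared, and the marker sites are too few for a comparison.

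The sequences that follow are shown because they are collagen sites that hold the binding motif of SF-1, whose dosage was changed. The motif was searched on both strands as CAAGGTCA or CAAGGCCA, and the capitals mark it. For each class of site, the earliest in list order that were at most 300 bp long and touched no annotated exon are given, read 5′ to 3′ from the plus strand of GRCh37. Shared sites were taken as they stand in the basal list. Both basal-only examples lay in introns 30 and 34 of COL15A1, a collagen of basement membrane zones. The overexpression-only examples were one upstream of COL7A1 with 2 motifs and one in intron 45 of COL27A1. The former was centred inside the neighbouring gene UQCRC1, within 1 kb of an annotated start of it. The shared examples were in intron 1 of COL4A1 and intron 27 of COL5A1. In COL4A1 the capitals are TGGCCTTG because the motif is on the minus strand.
COL15A1 intron 30, basal-only, chr9:101812501-101812749: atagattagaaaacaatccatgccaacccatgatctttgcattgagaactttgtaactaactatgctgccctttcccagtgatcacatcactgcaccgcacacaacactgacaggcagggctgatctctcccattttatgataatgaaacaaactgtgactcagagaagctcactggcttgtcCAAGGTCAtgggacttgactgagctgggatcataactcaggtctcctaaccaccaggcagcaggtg
COL15A1 intron 34, basal-only, chr9:101817801-101817999: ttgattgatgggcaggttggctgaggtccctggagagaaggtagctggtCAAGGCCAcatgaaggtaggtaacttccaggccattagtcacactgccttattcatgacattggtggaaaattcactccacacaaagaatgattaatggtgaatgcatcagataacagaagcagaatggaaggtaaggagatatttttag
COL7A1 upstream, overexpression-only, chr3:48640551-48640749: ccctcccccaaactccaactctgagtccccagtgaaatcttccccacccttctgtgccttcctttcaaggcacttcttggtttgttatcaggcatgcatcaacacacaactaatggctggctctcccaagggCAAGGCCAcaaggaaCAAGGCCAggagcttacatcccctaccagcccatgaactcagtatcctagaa
COL27A1 intron 45, overexpression-only, chr9:117052001-117052249: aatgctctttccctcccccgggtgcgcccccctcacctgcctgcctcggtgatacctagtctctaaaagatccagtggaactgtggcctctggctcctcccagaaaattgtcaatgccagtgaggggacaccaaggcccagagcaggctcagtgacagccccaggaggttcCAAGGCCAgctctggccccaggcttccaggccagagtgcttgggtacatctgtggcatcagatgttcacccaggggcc
COL4A1 intron 1, shared, chr13:110939851-110940149: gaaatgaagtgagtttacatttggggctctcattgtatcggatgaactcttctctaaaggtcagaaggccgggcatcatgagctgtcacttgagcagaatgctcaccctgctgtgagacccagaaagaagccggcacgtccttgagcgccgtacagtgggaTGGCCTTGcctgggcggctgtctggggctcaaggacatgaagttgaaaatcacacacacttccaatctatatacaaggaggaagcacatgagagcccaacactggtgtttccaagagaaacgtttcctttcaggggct
COL5A1 intron 27, shared, chr9:137670751-137671049: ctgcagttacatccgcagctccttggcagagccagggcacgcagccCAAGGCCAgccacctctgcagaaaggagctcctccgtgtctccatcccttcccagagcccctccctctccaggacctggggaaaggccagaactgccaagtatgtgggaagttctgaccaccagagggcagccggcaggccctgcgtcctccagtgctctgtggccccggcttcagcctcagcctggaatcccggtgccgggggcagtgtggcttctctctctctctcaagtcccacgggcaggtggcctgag

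To investigate how often collagen promoters were accessible, a promoter site was defined as a FAIRE site that overlapped the 1 kb on either side of any annotated transcript start of the gene. A smaller share of collagen genes than of other genes had a promoter site. In the basal list 8 of 44 had one (18.2%, interval 8.19 to 32.7), against 46.7% of all protein-coding genes. In the overexpression list 9 of 44 had one (20.5%, interval 9.80 to 35.3), against 48.9%. Collagen genes are long, with a median of 144.75 kb (17.325 kb for COL9A2 to 494.028 kb for COL25A1) against 27.219 kb for all coding genes, so they were also set against genes of like length. For each member the 100 non-collagen coding genes nearest in length were averaged, with each member weighted equally. Of these length-matched genes 55.1% had a promoter site in the basal list, and 56.7% had one in the overexpression list. The difference, collagen minus length-matched genes, was thus -36.9 percentage points for basal sites and -36.2 for overexpression sites, and in both lists the length-matched value lay above the interval of the collagen share. In either list 10 of 44 had a promoter site (22.7% against 53.9% of all coding genes and 63.2% of length-matched genes), and in both lists 7 of 44 (15.9% against 41.7% and 48.6%).

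**Figure D1:**
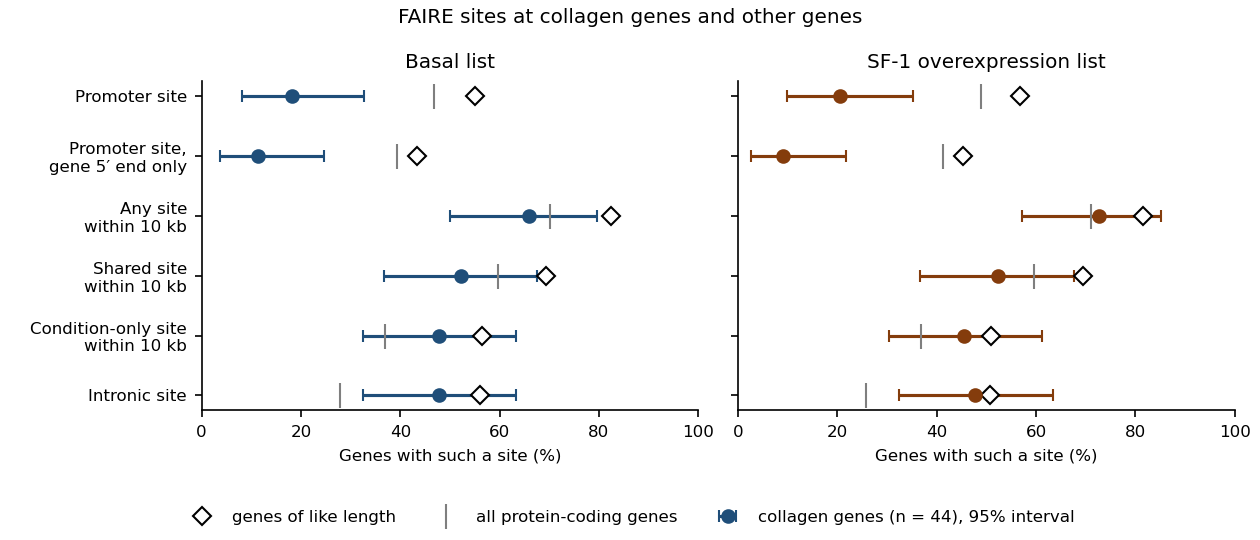
Share of genes (x axis, %) with each kind of FAIRE site (y axis) in the basal list (left) and the SF-1 overexpression list (right); filled circles are the 44 collagen genes with exact 95% intervals, diamonds length-matched genes and grey ticks all protein-coding genes. For promoter sites the collagen genes sit at 18.2% and 20.5%, with intervals below both reference values. For shared sites in both lists and any site in the basal list the interval lies below the length-matched value only. For condition-only and intronic sites the interval holds the length-matched value.

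The promoter sites fell into sites at the gene's own 5′ end and sites at annotated starts inside the gene. Of 12 promoter sites in the basal list 5 lay within 1 kb of the 5′ end, and of 13 in the overexpression list 5 did. Counting genes by the 5′ end alone, 5 of 44 collagen genes had a site in the basal list (11.4%, against 39.4% of all coding genes and 43.4% of length-matched genes) and 4 of 44 in the overexpression list (9.09%, against 41.2% and 45.3%).

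Of the 5 genes with a site at the 5′ end, 3 encode fibrillar chains. COL5A1, which encodes a chain of the type V collagen that seeds fibrils, had a shared site of 349 bp in the basal list (chr9:137533351-137533699) and 299 bp in the overexpression list, which was among the earliest collagen sites of the basal list (5.0% of the way down it). COL11A1, a fibrillar chain of cartilage, had a shared site at its canonical start (chr1:103574051-103574349 in the basal list), and cells overexpressing SF-1 had a further promoter site in intron 1 (chr1:103573201-103573449). COL27A1, another fibrillar collagen, had a shared site at -67 bp from its 5′ end in the basal list (chr9:116917601-116917899), where negative distances are upstream.

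The other 2 genes encode transmembrane collagens. COL25A1, which is expressed in neurons, had a shared site at -92 bp in the basal list (chr4:110223851-110224149), also within 1 kb of the start of the divergent transcript COL25A1-DT. COL13A1, known from the neuromuscular junction, had a basal-only site at -586 bp (chr10:71560951-71561149) and a second basal-only site at an inner start (chr10:71661501-71661649), and had no promoter site in the overexpression list.

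At the remaining genes the promoter site was at an inner start. COL1A1, the main chain of type I collagen, had a shared site in intron 1 centred 1393 bp into the gene in the basal list (chr17:48277451-48277749) that covered an annotated start of COL1A1 and lay within 1 kb of the start of another annotated gene, and a basal-only site in intron 6 (chr17:48275701-48275849). In COL4A3, a chain of the kidney glomerular basement membrane, a shared site lay in intron 48 (chr2:228172601-228172849), and in the FACIT gene COL14A1 a shared site lay in intron 45 (chr8:121358051-121358199). COL27A1 had 2 shared sites in intron 57 (chr9:117067751-117067899 and chr9:117068101-117068349) and an overexpression-only site in intron 19 (chr9:117002101-117002299). The promoter sites of 2 members were overexpression-only, COL4A2 in intron 46 beside the start of COL4A2-AS1 (chr13:111159501-111159849) and the FACIT gene COL9A1 in intron 28 (chr6:70955001-70955199).

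The type IV genes lie in head-to-head pairs that are transcribed away from a common region. No pair had a site of either list within 1 kb of this region. The canonical starts of COL4A1 and COL4A2, the widespread basement membrane chains, are 127 bp apart, and the nearest sites were 19.5 kb away in the basal and 1.82 kb away in the overexpression list. The latter was an overexpression-only site of 99 bp (chr13:110961401-110961499), in an intron of COL4A2 and upstream of COL4A1, that came 97.1% of the way down its list. The starts of COL4A3 and COL4A4 are 419 bp apart, with the nearest sites at 15.9 kb and 48.4 kb. For COL4A5 and COL4A6, on the X chromosome, the nearest sites were 347 kb and 333 kb away.

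To see whether the base composition at the 5′ ends differed, the CpG ratio (CpG dinucleotides observed over those given by the base content) was taken 500 bp on either side of each gene's 5′ end. This is the outermost annotated end and can lie away from the canonical start, whereas promoter sites were counted at any annotated start. The ratio was 0.861 for COL4A1 and 0.284 for COL4A2, although their canonical starts are 127 bp apart. The CpG classes therefore do not describe every start counted. The median was 0.531 over collagen genes, 0.686 over all coding genes and 0.736 over length-matched genes, and 38.6%, 59.6% and 69.3% of them reached 0.6. Among genes with a ratio of at least 0.6, 5 of 17 collagen genes had a promoter site in either list (29.4%, interval 10.3 to 56.0), against 70.7% of all coding genes and 72.4% of length-matched genes. Among genes below 0.6, 5 of 27 had one (18.5%, interval 6.30 to 38.1), against 29.1% and 42.3%. The collagen share was below both reference values in each class, and in the lower class its interval held the value of all coding genes.

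Sites were then counted within 10 kb of the gene bodies. The basal list had 74 distinct collagen sites and the overexpression list 68. Sites were found for 29 of 44 members in the basal list (65.9%, interval 50.1 to 79.5, against 70.2% of all coding genes and 82.3% of length-matched genes). In the overexpression list they were found for 32 of 44 (72.7%, interval 57.2 to 85.0, against 71.1% and 81.5%). The length-matched value lay above the interval in the basal list only. In either list 34 of 44 had a site (77.3%, against 77.5% and 88.0%). Sites were present in both lists for 27 members. COL10A1 and COL12A1 had sites in the basal list only, and COL3A1, COL6A2, COL9A1, COL17A1 and COL20A1 in the overexpression list only. This split was not made for all coding genes, so no imbalance of collagen genes can be read from it. No site in either list was found for COL4A5, COL4A6, COL5A2, COL5A3, COL6A1, COL6A5, COL9A2, COL9A3, COL23A1 and COL24A1.

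**Figure D2:**
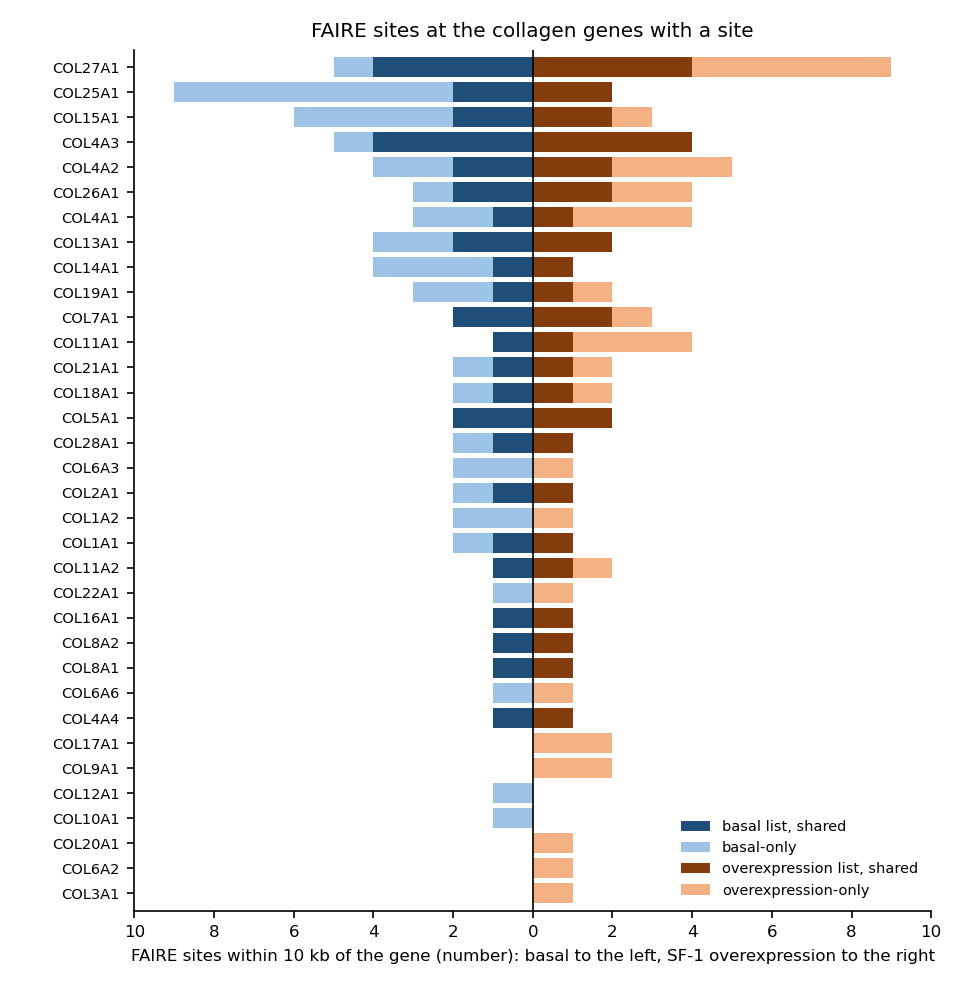
FAIRE sites within 10 kb of each of the 34 collagen genes that had any (x axis, number of sites; y axis, gene), with the basal list to the left and the SF-1 overexpression list to the right; dark bars are sites shared by the lists and light bars sites of one list only. COL27A1 has most sites in the overexpression list, COL25A1 in the basal list, and the shared part is alike on both sides by construction.

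A part of the flanking sites lay at the starts of neighbouring genes. Outside the gene bodies and apart from promoter sites there were 6 shared sites in each list, and 5 of these were within 1 kb of an annotated start of another gene. The neighbours were TMEM106C at COL2A1, PFKFB4 at COL7A1, ADPRS at COL8A2, RXRB and SLC39A7 at COL11A2, and PEF1 at COL16A1. Of such sites in one list only, none of the 4 in the basal list and 2 of the 9 in the other were at such a start, counting the site upstream of COL4A1 that lies inside COL4A2. The same counts were not made for the flanks of all coding genes. They therefore do not show a trait of collagen flanks. When every site within 1 kb of another gene's start was left out, 26 of 44 collagen genes had a site in each list (59.1%), against 52.1% of all coding genes and 71.5% of length-matched genes in the basal list, and 51.4% and 67.9% in the overexpression list.

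Most collagen sites were intronic, that is, centred in the gene body outside every annotated exon and not at a start. The basal list had 50 such sites and the overexpression list 41, of which 21 were shared in each. An intronic site was found in 21 of 44 collagen genes in each list (47.7%, interval 32.5 to 63.3). This compares with 27.8% of all coding genes and 56.1% of length-matched genes in the basal list, and with 25.8% and 50.8% in the overexpression list. There were 1.14 ± 1.75 intronic sites per collagen gene (SD over 44 genes, median 0, highest 8) in the basal list and 0.932 ± 1.25 (median 0, highest 4) in the overexpression list, against length-matched means of 1.56 and 1.23. Length-matched genes had means of 2.76 and 2.39 sites within 10 kb, so most of their sites were intronic too. Per 100 kb of intron, collagen genes had 0.796 basal and 0.653 overexpression sites, length-matched genes 1.09 and 0.853, and all coding genes 0.996 and 0.826. The difference between these means was not tested.

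**Figure D3:**
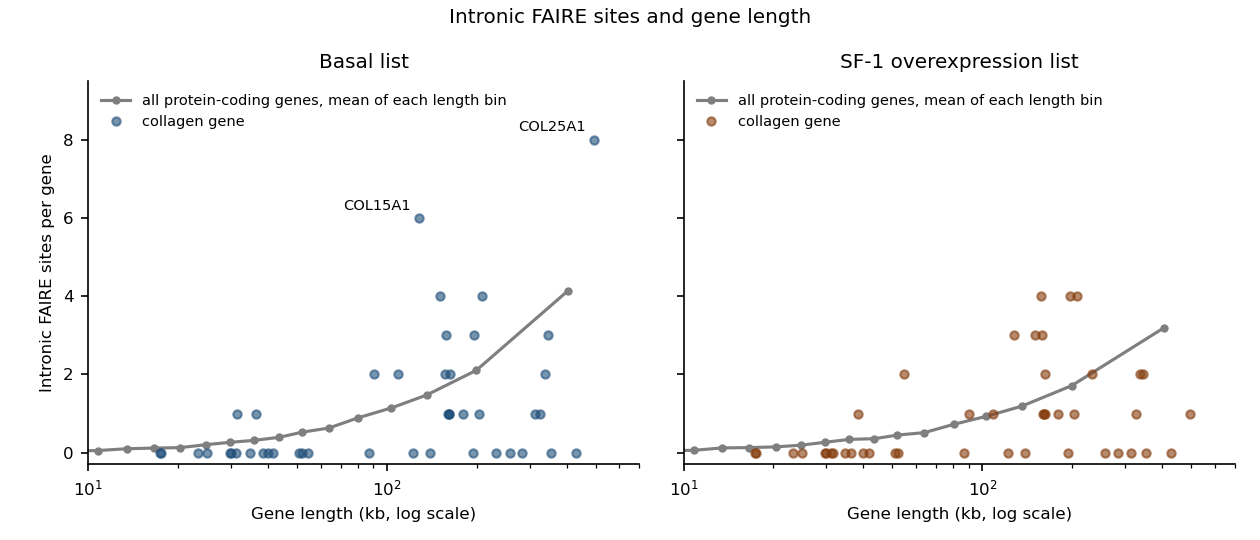
Intronic FAIRE sites per gene (y axis) against gene length (x axis, kb, log scale) in the basal list (left) and the SF-1 overexpression list (right); circles are collagen genes and the grey line joins the means of all protein-coding genes in bins of length. Site number rises with length, many collagen genes lie at 0, and COL25A1 with 8 and COL15A1 with 6 intronic sites stand highest in the basal list.

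In the canonical transcripts, introns 1 to 3 made up 38.0% of the intron length of the collagen genes. By site, 21 of 50 intronic sites of the basal list lay in introns 1 to 3 (42.0%), 7 of them in intron 1, and 20 of 41 of the overexpression list did (48.8%), 11 of them in intron 1. The median distance to the nearest annotated start of the gene was 15.9 kb in the basal and 13.6 kb in the overexpression list.

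To ask which sites differed between the lists, sites with an overlap of 1 bp or more between the lists were called shared and the rest basal-only or overexpression-only. In the basal list 36 of 74 collagen sites were shared and 38 were basal-only (48.6% shared, interval 36.9 to 60.6), against 58.1% shared among 25303 sites near coding genes. In the overexpression list 36 of 68 were shared and 32 were overexpression-only (52.9%, interval 40.4 to 65.2), against 62.9% of 23333. The ratio of overexpression to basal sites was 0.919 for collagen genes (interval 0.651 to 1.29) and 0.922 for coding genes. For condition-only sites the ratio was 0.842 (interval 0.509 to 1.38) and 0.816. Both intervals held 1 and the value near coding genes, so no shift of collagen sites towards either condition was detectable at these numbers.

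A shared site was found at 23 of 44 members (52.3%, interval 36.7 to 67.5), against 59.6% of all coding genes and 69.4% of length-matched genes. The length-matched value lay just above the interval. Basal-only sites were present at 21 of 44 members (47.7%, against 36.9% and 56.4%) and overexpression-only sites at 20 of 44 (45.5%, against 36.8% and 50.9%). There were more basal-only than overexpression-only sites at 13 members (29.5%, against 25.3% of all coding genes and 38.2% of length-matched genes) and more overexpression-only than basal-only sites at 12 (27.3%, against 23.4% and 25.9%).

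The condition-only sites were unevenly spread over the members. COL25A1 had 9 basal and 2 overexpression sites, with 7 basal-only and no overexpression-only sites. The basal-only sites of COL25A1 were all intronic, 99 to 249 bp wide, and spread from intron 3 to intron 31. COL15A1 had 6 basal and 3 overexpression sites, and its 4 basal-only sites lay within introns 30 to 36, near the 3′ end of the gene. COL14A1 had 4 basal sites and 1 overexpression site, with 3 basal-only sites, and COL13A1 had 4 and 2, with 2 basal-only sites. All 4 genes had fewer sites in the overexpression list.

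COL27A1 and COL11A1 went the other way. COL27A1 had 5 basal and 9 overexpression sites, with 1 basal-only and 5 overexpression-only sites that ran from upstream of the gene (chr9:116916151-116916449) to intron 45. COL11A1 had 1 basal and 4 overexpression sites, and its 3 overexpression-only sites clustered in intron 1 just inside the shared promoter site. COL17A1, a collagen of epithelial hemidesmosomes, had no basal site and 2 overexpression-only sites.

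Other members with many sites were nearer to balance. COL4A2 had 4 basal and 5 overexpression sites, COL4A1 3 and 4, COL26A1 3 and 4, COL7A1, the collagen of skin anchoring fibrils, 2 and 3, COL19A1 3 and 2 and COL4A3 5 and 4. In COL4A3 all 4 overexpression sites were shared.

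**Figure D4:**
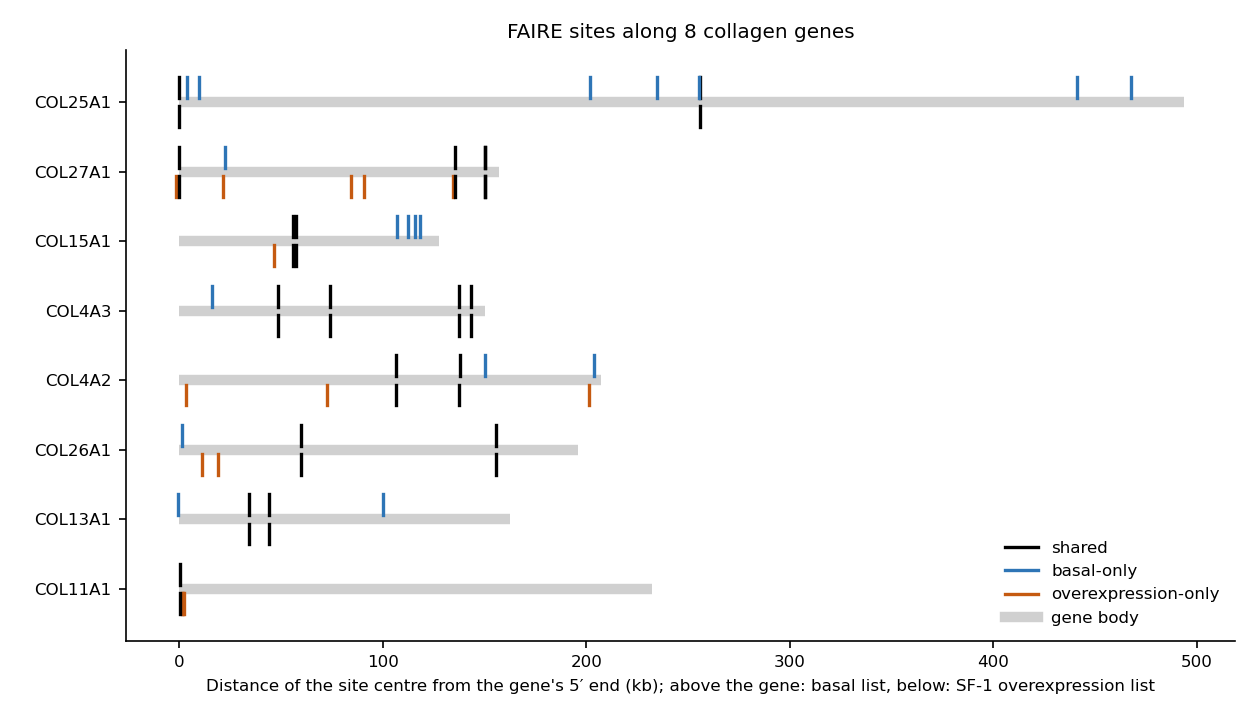
FAIRE sites along 8 collagen genes (x axis, distance of the site centre from the gene's 5′ end in kb; y axis, gene), with the basal list drawn above and the SF-1 overexpression list below each gene; black marks are shared, blue marks basal-only and orange marks overexpression-only sites. The 7 basal-only sites of COL25A1 are spread along the gene, the 4 of COL15A1 lie together near its 3′ end, and the sites of COL11A1 all lie at its 5′ end.

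The classes of site differed in base composition. Mean GC content was 53.2% in shared and 44.2% in basal-only collagen sites of the basal list (55.9% and 44% near all coding genes), and 53.7% in shared and 48.8% in overexpression-only sites of the overexpression list (56.0% and 50.7%). The 7 basal-only sites of COL25A1 had a mean GC content of 38.6% (33.3 to 46.3), the 4 of COL15A1 42.0% and the 3 of COL14A1 37.3%. The 2 basal-only sites of COL13A1 went the other way, at 62.0%. The 5 overexpression-only sites of COL27A1 had 55.3%, the 2 of COL17A1 53.0% and the 3 of COL11A1 47.9%. The part of GC content in these differences was not tested. Collagen sites also came later in the lists, at a median of 58.0% of the way down the basal list and 51.8% down the overexpression list, against 47.1% and 46.7% for sites near coding genes, and 5 of 74 (6.76%) and 4 of 68 (5.88%) were in the first 10% of a list, against 11.5% and 11.9%. The quantity by which the lists were ordered is not given in the sources used here.

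The files give no height of a site, so sites were compared by width. Among sites away from the starts of the collagen gene itself, the widest basal-only sites were in COL15A1 intron 36 (chr9:101823201-101823849, 649 bp), COL4A3 intron 1 (chr2:228045051-228045499, 449 bp) and COL27A1 intron 3 (chr9:116939951-116940349, 399 bp). They came 14.9%, 91.1% and 7.14% of the way down the basal list. The widest overexpression-only sites were in COL4A1 intron 49 (chr13:110808701-110809149, 449 bp), COL4A1 intron 1 (chr13:110918901-110919299, 399 bp) and intron 3 of COL22A1, a FACIT collagen of tissue junctions (chr8:139870001-139870399, 399 bp). They came 11.8%, 77.8% and 89.7% of the way down the overexpression list. The COL4A1 intron 1 site was within 1 kb of the start of another annotated gene. In the basal list the widest shared sites were in intron 2 of COL18A1, the precursor of endostatin (chr21:46852801-46853299, 499 bp), downstream of COL7A1 at the start of PFKFB4 (chr3:48594251-48594699, 449 bp) and in COL4A3 intron 1 (chr2:228077601-228078049, 449 bp). A shared site downstream of the FACIT gene COL16A1, at the start of PEF1, was also 449 bp wide there (chr1:32110451-32110899) and came later in the list. In the overexpression list the COL16A1 and COL18A1 sites were both 549 bp wide, the COL7A1 site 499 bp and the COL4A3 site 249 bp. The COL18A1 site was among the earliest collagen sites in both lists, at 3.13% of the basal and 7.28% of the overexpression list.

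The SF-1 motif was found in 12 of 74 collagen sites of the basal list (16.2%, interval 8.67 to 26.6) and in 11 of 68 of the overexpression list (16.2%, interval 8.36 to 27.1), against 12.7% and 12.6% of all sites in the lists. Of the sites with the motif, 7 were shared and 5 basal-only in the basal list, and 7 were shared and 4 overexpression-only in the overexpression list. Besides the genes whose sequences are shown, motif-bearing sites lay in COL4A3, COL13A1, COL18A1 and COL22A1, among others. The motif of AP-1 (TGACTCA or TGAGTCA, both strands) was in 8 collagen sites of the basal list (10.8%, interval 4.78 to 20.2, against 6.95%), of which 5 were basal-only. In the overexpression list it was in 3 sites, all of them shared (4.41%, interval 0.919 to 12.4, against 5.58%). The CTCF motif was in 18 (24.3%, interval 15.1 to 35.7, against 17.5%) and 17 sites (25%, interval 15.3 to 37, against 16%). All of these intervals held the value over all sites. When 500 bp around each site centre were searched instead, AP-1 was in 13.5% of the basal and 10.3% of the overexpression collagen sites and SF-1 in 24.3% and 25%, so the AP-1 shares were nearer to each other. No share over all sites is given for this wider search, so these values cannot be set against the shares over all sites above. A match is a description of the letters and not a bound factor.

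The study's expression arrays, made on other samples of this cell line, listed 6 collagen genes as changed by SF-1 overexpression, and only their names were used here. The 3 listed as lower, COL4A3, COL4A4 and COL15A1, had 12 basal and 8 overexpression sites, with 5 basal-only sites and 1 overexpression-only site. The 3 listed as higher, COL11A1, COL18A1 and COL22A1, had 4 and 7 sites, with 2 basal-only and 5 overexpression-only sites. COL15A1 and COL11A1 carried most of this difference. COL18A1 and COL22A1 each had 1 basal-only and 1 overexpression-only site, and COL4A4 had a single shared intronic site. With 3 genes on each side and 1 library per condition these counts are a description.

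Among the subfamilies, promoter sites in either list were found at 4 of 11 fibrillar, 2 of 9 network, 2 of 10 FACIT and 2 of 4 transmembrane collagen genes, and at none of 5 beaded filament genes, 2 multiplexins (COL15A1 and COL18A1), the anchoring fibril gene COL7A1, COL26A1 and COL28A1. Fibrillar collagen genes had 15 basal and 21 overexpression sites, 5 of them basal-only and 11 overexpression-only. Most of these overexpression-only sites came from COL27A1 with 5 and COL11A1 with 3. Transmembrane collagen genes had 13 and 6, with 9 basal-only and 2 overexpression-only sites, most of them from COL25A1. Beaded filament genes had 3 sites in each list and shared none of them, against 58.1% (basal) and 62.9% (overexpression) shared near coding genes. These are too few sites for a comparison. The intervals of the subfamilies overlapped one another, so no order among them can be given.

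Genes that act on collagen had promoter sites at a share near that of all coding genes. Of 28 genes for collagen processing and folding, 15 had a promoter site in either list (53.6%, interval 33.9 to 72.5, against 53.9% of all coding genes). They included P4HA1 and P4HB, the subunits of prolyl 4-hydroxylase, CRTAP and P3H1 of the prolyl 3-hydroxylation complex, and COLGALT1, which glycosylates hydroxylysine. No site in either list was found at LOX, the lysyl oxidase that crosslinks collagen, BMP1, the procollagen C-proteinase, or SERPINH1, the collagen chaperone. The collagen genes themselves, at 22.7%, had an interval (11.5 to 37.8) that overlapped that of the processing genes, and the difference between these lists was not tested. The processing genes, from 5.81 kb (PCOLCE) to 288 kb (ADAMTS3), were not matched for length in either comparison.

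**Figure D5:**
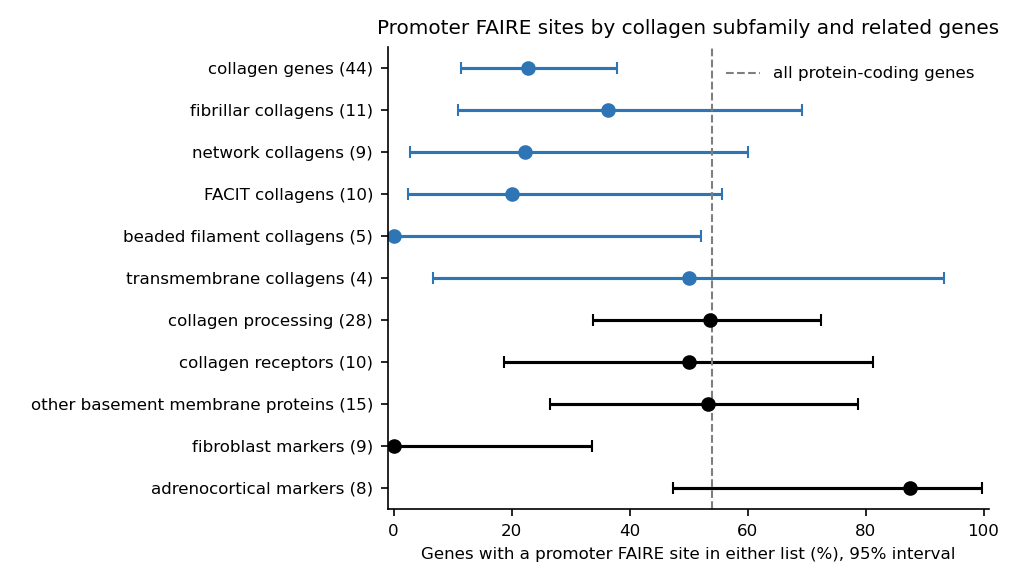
Share of genes with a promoter FAIRE site in either list (x axis, %) for the collagen genes and their subfamilies (blue) and for related gene lists (black), with the number of genes in brackets on the y axis; bars are exact 95% intervals and the dashed line marks all protein-coding genes. The collagen genes lie at 22.7%, the processing genes at 53.6%, fibroblast markers at 0 and adrenocortical markers at 87.5%.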

How the data were processed

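FAIRE libraries came from H295R/TR SF-1 cells, 1 per condition, grouped per the labels. The deposited values were peak lists on hg19, 1 per library, and the submitters' processing notes name CASAVA 1.8. The FAIRE peak caller, its threshold and any correction for depth are not given in the sources used here. The deposited score of each peak was 1000 without exception, so site width was used for size. Sites lay on a 50 bp grid.

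Genes and transcript starts were those of GENCODE release 44 mapped to GRCh37. Python 3.11.15, NumPy 2.4.6 and SciPy 1.17.1 were used, with steps tested on simulated data. Intervals are exact (Clopper-Pearson, or exact binomial for ratios). With 1 library per condition no p-value was computed, and sites and genes are not replicates. The CTCF search allowed 1 mismatch. Named genes were those with promoter sites, those with most sites, the type IV pairs, those on the study's expression lists and those with no site. Named sites were all promoter sites and the widest others of each class. No sequence from chromosome 8 is printed. Members, lists and rules were chosen with earlier results of these data known, and the CpG classes, the split of promoter sites by start and the omission of neighbours' starts were added after seeing the data. Alternatives covered overlap, width, list length, distance, start definition and length matching.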

Additional observations from a re-analysis of the deposited data

How the results depend on the processing

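The lower share of collagen genes with a promoter site than of length-matched genes kept its direction under every alternative run for it. Those of site width, list length, promoter window, start definition and length matching gave differences of -29.2 (wider 50% of the basal list) to -36.8 percentage points (promoter window of 2 kb, overexpression list). In the CpG classes added after seeing the data the difference in the overexpression list was -42.4 at a ratio of at least 0.6 and -17.3 below it. With starts limited to the gene's 5′ end the share in the overexpression list fell to 9.09%. Shares with condition-only sites moved with the number of sites counted. With the wider 50% of each list, genes with a shared site were 29.5% in each list and genes with a basal-only site 22.7%. Within 100 kb of the gene, shared sites were at 84.1% in each list, basal-only sites at 75.0% and overexpression-only sites at 81.8%. The overexpression-only share, differed from that of length-matched genes by -5.43 points as reported, by 2.36 points with the wider 50% and by 2.84 points within 100 kb, and the cause was not tested. Of 108 alternatives 97 stayed within the interval of the reported value, and the differences among them kept their direction. For intronic sites per gene the limit was the SD over genes, which is a loose limit. The 97 include the ratio of overexpression to basal sites, which did change side of 1. It was 0.919 as reported and 1.06 with the wider 50% of each list, within its interval. No paired analysis was possible because each condition had 1 FAIRE library. The precision is limited by the 44 genes, and depth is unknown.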

Other observations

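Of 10 genes for receptors that bind collagen, 5 had a promoter site in either list (50%, against 53.9% of all coding genes), namely DDR1 and DDR2, the discoidin domain receptors, ITGB1, the common integrin beta chain, and the collagen-binding alpha chains ITGA1 and ITGA11. DDR2 had 8 sites in the basal list, 2 of them promoter sites, and 6 in the overexpression list with no promoter site. DDR1 had 5 sites in each list, 3 of them promoter sites. LAIR1, an inhibitory receptor of leukocytes, had no site in either list.

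Of 15 genes for other basement membrane proteins, 8 had a promoter site in either list (53.3%, against 53.9% of all coding genes). LAMA2, a laminin alpha chain, had 12 sites in the basal list, 8 of them basal-only, and 7 in the overexpression list, and LAMA3 had 7 and 2. LAMB1, a laminin beta chain, had 2 basal-only sites and 5 overexpression-only sites, with 2 promoter sites in the overexpression list and none in the basal list. NID1 and NID2, the nidogens that link laminin to type IV collagen, each had 1 promoter site in both lists. These lists were compared by counts without matching for length, each condition has 1 library, and no difference was tested.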
